A study of Mus musculus with 6 samples.

Results

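Skeletal muscle genes were examined in melanoma tumours grown from B16F10 cells (a melanoma line of the mouse) beneath the skin on the left hind leg. The list holds 45 genes of the sarcomere, of its calcium supply and energy supply and of muscle formation, chosen by name and all present among the 20938 genes of the deposited table. It was divided into 10 fast sarcomere genes, 7 slow sarcomere genes, 5 genes of the developing sarcomere, 12 structural genes shared by fibre types, 4 genes of calcium handling, 4 of energy supply, and 3 regulator and receptor genes. Cells in 200 µL of saline were injected into male C57BL/6 mice aged 6 weeks, and the tumours were taken on day 19. There were 3 control tumours and 3 from cells labelled as overexpressing YKL-40, a secreted chitinase-like protein. All 6 carry the genotype label WT. The labels give neither the control vector, nor the species of the YKL-40 sequence, nor the mouse behind each library, and p-values here cover only the spread between these samples, which may be technical. The series title asks about melanoma proliferation, and muscle was not among its stated aims.

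Skeletal muscle contracts by the sliding of thick filaments of myosin along thin filaments of actin, with troponin and tropomyosin as the calcium-controlled switch. Fast and slow fibres use different members of the same gene families, and embryonic, perinatal and regenerating fibres use another set. MyoD and myogenin, transcription factors that bind E-boxes, drive the formation of muscle fibres together with MEF2 and serum response factor. The cells of a melanoma are not muscle. In these bulk samples, fewer muscle cells and less muscle RNA per cell cannot be told apart.

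The promoters of 5 genes are shown because they belong to the genes on which the comparison turns. Myh8 and Myl4 are the members that passed the test, Myh4 and Acta1 are adult fibre genes that were low in the YKL-40-labelled libraries without passing it, and Myl3 is a member that was not lower. Each sequence is a window of 300 bases around an annotated start, 5′ to 3′, from RefSeq, GRCm38.p6, with positions counted from that start. Capitals mark 3 motifs: the E-box CAGCTG, the CArG box of serum response factor and the MEF2 site, searched on both strands. Myh8 lies at chr11:67276874-67277173 (plus strand), Myl4 at chr11:104550413-104550712 (plus), Myh4 at chr11:67237562-67237861 (plus), Acta1 at chr8:123894726-123895025 (minus) and Myl3 at chr9:110763428-110763727 (plus).
Myh8: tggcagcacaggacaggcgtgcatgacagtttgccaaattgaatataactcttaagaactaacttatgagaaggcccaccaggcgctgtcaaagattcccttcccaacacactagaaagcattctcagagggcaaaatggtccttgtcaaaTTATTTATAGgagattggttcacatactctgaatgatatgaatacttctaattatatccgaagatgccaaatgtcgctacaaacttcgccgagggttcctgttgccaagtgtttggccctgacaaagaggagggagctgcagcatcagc
Myl4: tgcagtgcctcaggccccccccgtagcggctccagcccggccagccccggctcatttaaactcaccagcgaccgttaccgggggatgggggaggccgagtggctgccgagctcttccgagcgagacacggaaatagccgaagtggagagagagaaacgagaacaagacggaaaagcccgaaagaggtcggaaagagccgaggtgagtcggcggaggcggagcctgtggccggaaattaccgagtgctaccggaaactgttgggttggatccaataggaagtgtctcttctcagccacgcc
Myh4: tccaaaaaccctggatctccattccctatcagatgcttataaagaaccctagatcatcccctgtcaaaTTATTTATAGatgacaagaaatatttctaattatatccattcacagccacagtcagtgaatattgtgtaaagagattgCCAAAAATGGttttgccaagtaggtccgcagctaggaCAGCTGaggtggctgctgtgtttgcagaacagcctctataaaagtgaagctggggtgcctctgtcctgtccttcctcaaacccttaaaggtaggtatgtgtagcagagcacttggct
Acta1: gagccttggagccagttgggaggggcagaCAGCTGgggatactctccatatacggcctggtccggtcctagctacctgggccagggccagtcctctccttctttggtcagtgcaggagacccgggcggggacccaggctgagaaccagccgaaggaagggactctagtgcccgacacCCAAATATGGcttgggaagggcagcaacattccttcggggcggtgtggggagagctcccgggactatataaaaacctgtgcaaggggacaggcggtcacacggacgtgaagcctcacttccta
Myl3: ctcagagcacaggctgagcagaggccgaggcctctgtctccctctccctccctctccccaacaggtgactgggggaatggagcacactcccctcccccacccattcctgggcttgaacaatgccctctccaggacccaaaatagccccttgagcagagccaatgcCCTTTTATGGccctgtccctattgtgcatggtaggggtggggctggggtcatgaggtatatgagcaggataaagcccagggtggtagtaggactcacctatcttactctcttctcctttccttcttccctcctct
The Myh4 window held all 3 motifs, with a CAGCTG E-box that starts at -67, a CArG box at -104 and a MEF2 site at -182. In Acta1 there was a CArG box at -73 and a CAGCTG E-box at -221. Myh8 held a MEF2 site at -99, Myl3 held a CArG box at -85, and the Myl4 window held none of the 3.

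The table of promoters matched 37 of the 45 members, with 44 start windows of 300 bases, and not Myot, Myod1, Myom2, Tnni2, Neb, Actn3, Tcap and Tnnt3. A CAGCTG E-box was in 47.7% of the member windows and in 16.3% of all 32851 windows. For the CArG box the shares were 15.9% and 1.63%, and for the MEF2 site 9.09% and 3.19%. Members with a CArG box were Acta1, Actc1, Ldb3, Myh4, Myl3 and Myom1, and those with a MEF2 site were Myh1, Myh4, Myh8 and Ttn. The wider E-box CANNTG, which includes CAGCTG, was in 84.1% of member windows and 72.3% of all. The motif TATAAA, which can overlap the MEF2 site, was in 22.7% and 13.6%. These matches describe letters in short windows and are not binding data.

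The targeted gene did not check the labels. Chil1, the mouse gene of YKL-40, had 0.0644, 0 and 0.0242 FPKM (fragments scaled for transcript length and for library size) in the controls and was listed at 0 in all YKL-40-labelled libraries (exact two-sided permutation p = 0.4). Reads of a sequence from another species need not map to it, and every direction below rests on the labels. Total read numbers are unknown. Relative to control 1, depths estimated from the lowest values ran from 0.95 to 1.33. Melanoma markers were present in every library, with Pmel at 3656 to 5461 FPKM and Dct at 2351 to 3287 FPKM, and 0 of 10 such markers passed in limma (1 higher at an unadjusted p under 0.05). Together, the 45 muscle genes held 0.0441%, 0.0263% and 0.0770% of the summed FPKM of the controls against 0.0204%, 0.0202% and 0.0153% under the YKL-40 label. These shares include Eno3 and Pygm, whose values overlapped between the groups.

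Most muscle genes had lower values under the YKL-40 label, and 2 of them, Myh8 and Myl4, passed the test. A change is the mean log2(FPKM + 1) under the YKL-40 label minus that of the controls, which understates the change of genes with low values. Of the 45 members, 41 had a change below 0 and 4 a change above 0. The median over all 45 was -0.85, against -0.01 over the 16417 genes above 0 in at least 1 library. In 29 of the 45, every YKL-40-labelled library lay below every control, which was so for 11.3% of the 16417 genes, and in 0 of the 45 did they lie above every control (10.7% of the genes). Tests with limma covered the 29 members whose mean over all libraries reached 1 FPKM. Of these, 2 (Myh8 and Myl4) fell at an adjusted p under 0.05, while 0.0712% of all 11241 tested genes did, and 0 members rose (0.365% of all). At an unadjusted p under 0.05, 21 of the tested members were lower (9.24% of all tested genes) and 0 higher (8.71%). Of the tested members, 13 had a YKL-40-labelled mean below 1 FPKM, Myh8 and Myl4 among them. They passed the filter only through the controls, which favours members that were lower.

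**Figure D1:**
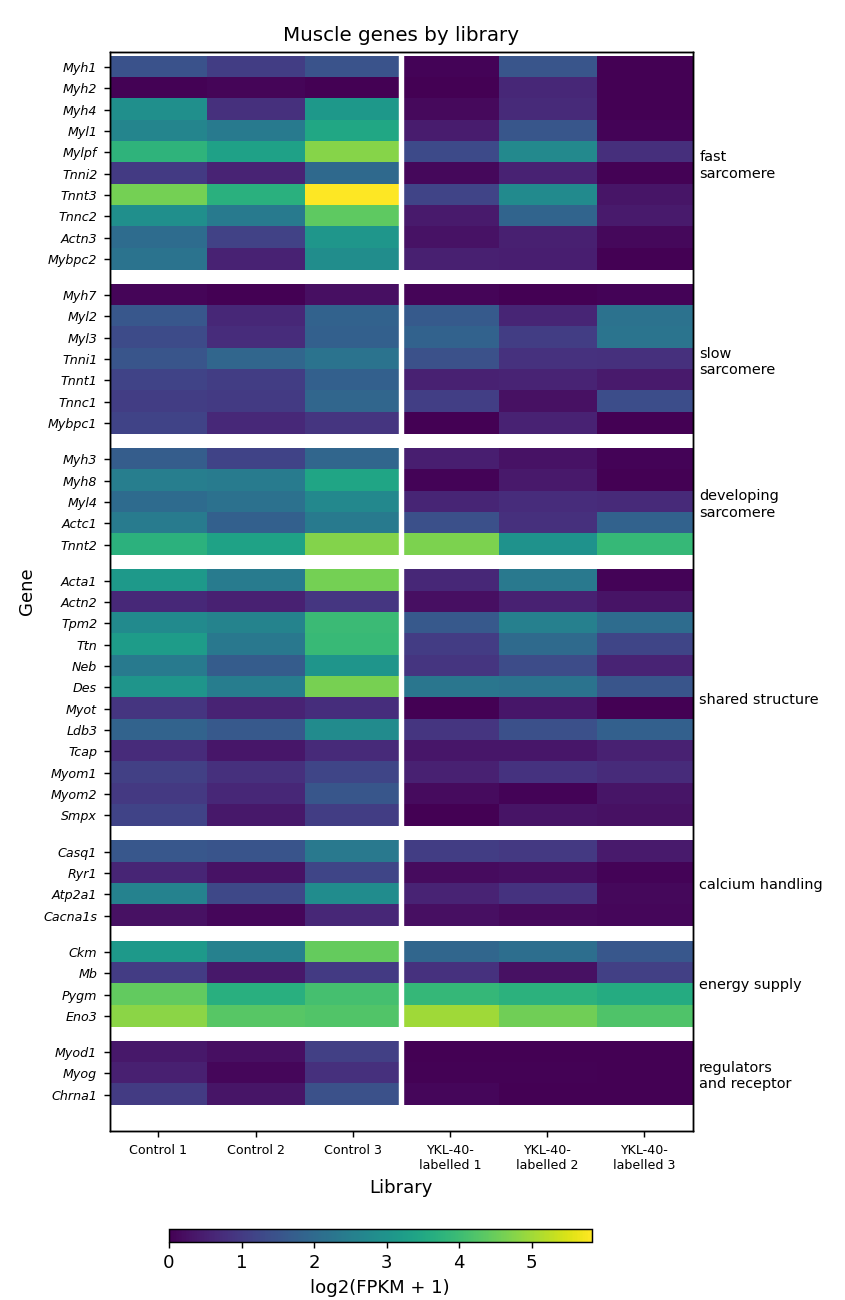
Level of each of the 45 muscle genes as log2(FPKM + 1) (colour) in the 3 control and the 3 YKL-40-labelled libraries (columns), by class (right). Most rows are brightest in control 3 and dark in the YKL-40-labelled columns, while Eno3 and Pygm are bright in all 6.

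The libraries of a group differed widely in their muscle content. Control 3 was the highest control for 36 of the 45 members and control 2 the lowest control for 41. Among the YKL-40-labelled libraries, number 2 was the highest for 24 members. The members summed to 207, 126 and 369 FPKM in the controls against 100.2, 94.4 and 72.2 FPKM under the YKL-40 label. Without Eno3 and Pygm, whose groups overlapped, the sums were 159.8, 95.7 and 334.4 FPKM against 55.6, 59.4 and 43.55 FPKM. At least 1 FPKM was reached by 34, 24 and 36 members in the controls and by 15, 16 and 13 in the YKL-40-labelled libraries. A value of 0 was listed in at least 1 YKL-40-labelled library for 11 members and in a control for 1, Myh2.

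The calls were on 2 genes of the developing sarcomere. Myh8 encodes the perinatal myosin heavy chain, a motor protein of fibres around birth and of regenerating fibres (chromosome 11, 67277124 to 67308634). It had 4.63, 4.35 and 9.75 FPKM in the controls against 0.0474, 0.324 and 0 under the YKL-40 label. The groups lay far apart, with every YKL-40-labelled value below 1 FPKM. Its mean fell from 6.24 ± 3.04 to 0.124 ± 0.175 FPKM (SD, n = 3 per group), with a change of -2.62 ± 0.28 (SE; limma adjusted p = 0.0303). Myl4 encodes the embryonic and atrial essential light chain of myosin (chromosome 11, 104546017 to 104587215, with the window above at a start inside the locus). Its values were 3.11, 3.51 and 5.61 FPKM in the controls against 0.516, 0.667 and 0.628 under the YKL-40 label. The YKL-40-labelled values were close together, and the groups did not overlap. The mean fell from 4.08 ± 1.34 to 0.604 ± 0.0786 FPKM, a change of -1.63 ± 0.19 (SE; limma adjusted p = 0.0303). Neither call held when control 1, control 2, YKL-40-labelled library 1 or YKL-40-labelled library 3 was left out. The limma adjusted p then ran from 0.0510 to 0.107 for Myh8 and from 0.0661 to 0.136 for Myl4. Without a filter on low values it was 0.106 for Myh8 and 0.107 for Myl4, and Myh8 did not pass with a pseudocount of 0.01 (limma adjusted p = 0.0794).

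The other 3 genes of the developing class did not pass. Myh3, the embryonic myosin heavy chain, had 2.29, 1.25 and 2.78 FPKM in the controls against 0.413, 0.217 and 0.0440 under the YKL-40 label. Its groups did not overlap, with a change of -1.32 ± 0.23 (SE; limma adjusted p = 0.0712). Actc1, the actin of the heart and of fetal muscle, had 4.35, 2.44 and 4.18 FPKM and then 1.67, 0.740 and 2.53, so the groups overlapped. Tnnt2, the troponin T of the heart and of embryonic muscle, stood apart from the class. It had 12.4, 9.27 and 25.7 FPKM in the controls against 24.8, 6.81 and 14.0 under the YKL-40 label, with a change of -0.09 ± 0.48 (SE; limma adjusted p = 0.941) whose direction turned if control 3 (0.30) or YKL-40-labelled library 2 (0.35) was left out.

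Fast sarcomere genes had a median change of -1.89 over 10 members, the lowest of the 7 classes with a pseudocount of 1. With a pseudocount of 0.01 the regulators and receptor were lowest, at -5.21 against -3.88 for the fast class, so the order of the classes depends on this choice. Their summed FPKM was 64.0, 33.7 and 138 in the controls against 4.36, 20.7 and 1.47 under the YKL-40 label. Every YKL-40-labelled sum was thus below every control, and library 2 came nearest. In 8 of the 10 every YKL-40-labelled library lay below every control (11.3% of all genes above 0). In limma 0 of the 8 tested ones passed, and 7 were lower at an unadjusted p under 0.05 (9.24% of all tested genes). Tnnt3, the fast troponin T, which ties the troponin complex to tropomyosin, had 23.3, 12.0 and 55.7 FPKM in the controls against 1.29, 5.95 and 0.249 under the YKL-40 label. Its change of -3.27 ± 0.71 (SE; limma adjusted p = 0.0881) was the largest of any member with a pseudocount of 1. With 0.1 it was -4.13, against -5.01 for Myh8, and with 0.01 both Myh8 (-6.66) and Myh4 (-5.17) were past it (-4.31). Mylpf, the fast regulatory light chain, had 12.8, 9.10 and 26.4 FPKM and then 1.49, 5.69 and 0.720 (-2.35 ± 0.54; limma adjusted p = 0.0965). For Tnnc2, the fast troponin C that binds calcium, the values were 6.52, 4.28 and 19.96 FPKM and then 0.331, 2.69 and 0.345 (-2.33 ± 0.58; limma adjusted p = 0.115). In all 3 genes control 3 was highest and the YKL-40-labelled libraries lay below the lowest control. Without YKL-40-labelled library 2, Tnnt3 passed in limma (adjusted p = 0.0360), as did Mylpf (0.0316) and Myl1 (0.0229), the fast essential light chain.

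Of the 10 fast genes, 9 had a change below 0, the exception being Myh2. Mean FPKM in controls over that in YKL-40-labelled libraries was 19.98 for Myh4, 16.0 for Actn3 (the alpha-actinin of fast Z-discs), 12.7 for Mybpc2 (fast myosin-binding protein C), 8.45 for Myl1 and 7.68 for Tnni2 (fast troponin I, mean under the filter). Within the controls alone, Mybpc2 differed 13.3-fold and Myh4 10.1-fold between the highest and the lowest library. Myh1 and Myh2 overlapped between the groups, and both were highest in YKL-40-labelled library 2.

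**Figure D2:**
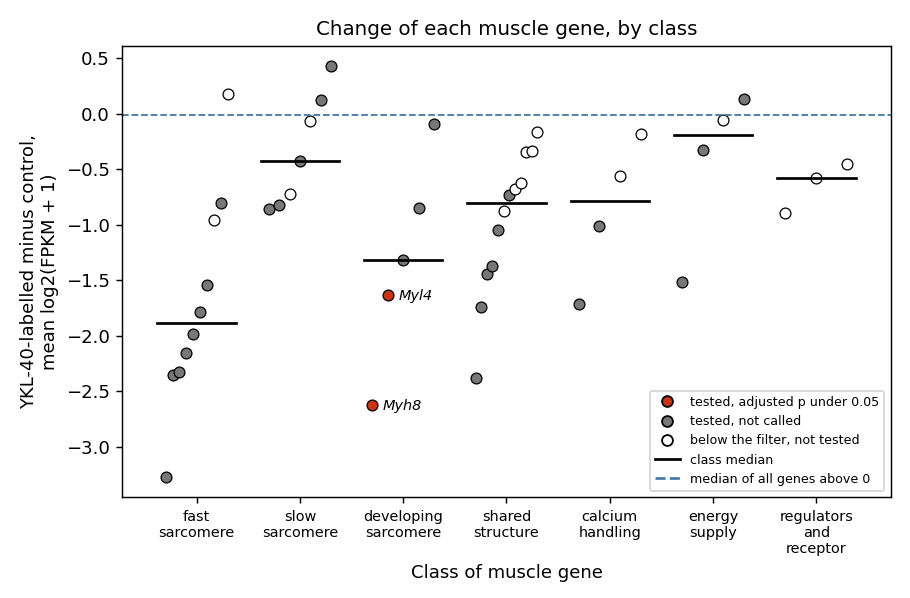
Change of each of the 45 muscle genes (YKL-40-labelled minus control, mean log2(FPKM + 1)) by class; red points passed limma at an adjusted p under 0.05, white points lay below the filter, black lines are class medians, and the dashed line is the median of all genes above 0 (-0.01). The fast class has the lowest median (-1.89) with the pseudocount of 1 plotted here, but not with 0.01, and the 2 genes that passed, Myh8 and Myl4, are in the developing class.

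Myosin heavy chains show how the mixture differed between libraries. These motor proteins define fibre types: Myh4, Myh1 and Myh2 are the adult fast forms, Myh3 and Myh8 the embryonic and perinatal forms and Myh7 the slow form. Together they summed to 15.3, 7.50 and 22.1 FPKM in the controls against 0.686, 3.65 and 0.0832 FPKM under the YKL-40 label. In the controls, Myh3 and Myh8 made up 45.3%, 74.7% and 56.7% of the sum. The developing forms thus formed a large share of the myosin RNA in each control, beside Myh4 at 6.52, 0.750 and 7.58 FPKM. In YKL-40-labelled library 2 they made up 14.8%, while Myh1 (1.91 FPKM) and Myh2 (0.564 FPKM) held 52.4% and 15.4%. Both genes were higher there than in any control, where Myh1 had 1.75, 1.09 and 1.82 FPKM and Myh2 had 0.0275, 0.0503 and 0. Shares in YKL-40-labelled libraries 1 and 3 rest on sums below 1 FPKM. Adult fast forms made up 54.4%, 25.2% and 42.5% in the controls and 85.0% in YKL-40-labelled library 2. No test was made on these shares.

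**Figure D3:**
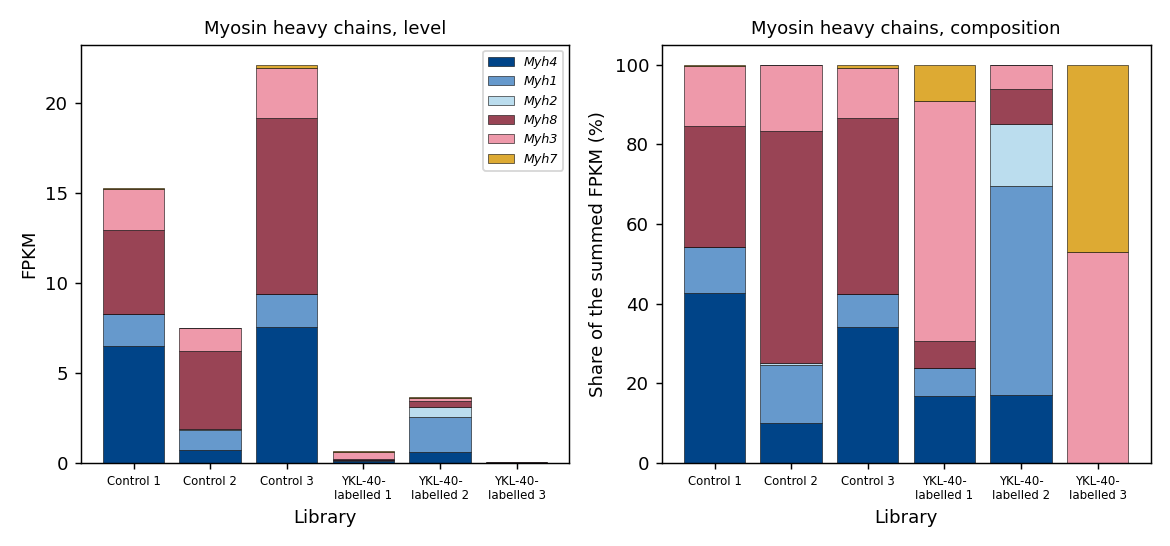
FPKM of the 6 myosin heavy chain genes of the list in each library, stacked (left), and as a share of their sum (right); blue shades are adult fast, red shades embryonic and perinatal, yellow is slow. The sum is 7.50 FPKM or more in the controls against 3.65 or less under the YKL-40 label, and library 2 of the latter is mainly Myh1 and Myh2.

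Myh3, Myh2, Myh1, Myh4 and Myh8 lie in this order in 1 cluster on chromosome 11, from 67078273 to 67308634, and their transcripts are alike. Of the 50-base windows of the longest coding transcript in GENCODE M21, 32.1% in Myh1, 28.9% in Myh2, 18.9% in Myh4, 21.4% in Myh8 and 4.81% in Myh3 also occurred in another gene. With windows of 100 bases the shares were 14.7%, 11.2%, 3.85%, 6.61% and 1.15%. No source used here gives the read length, so how reads were divided within the cluster is uncertain. Tnnc2 shared 55% of its 50-base windows with its neighbour Ube2c. For Myl4 the share was 0% with either window, although RefSeq places Cdc27 and other genes across its locus.

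Slow sarcomere genes did not all follow the same pattern. Their median change was -0.43 over 7 members. In limma 0 of 5 tested ones passed (2 lower at an unadjusted p under 0.05, against 9.24% of all tested genes). Tnni1, the slow troponin I, had 1.92, 2.78 and 3.68 FPKM in the controls against 1.73, 0.791 and 0.762 under the YKL-40 label (-0.86 ± 0.24; limma adjusted p = 0.142). Its groups did not overlap, and neither did those of Tnnt1 (slow troponin T) or of Mybpc1 (slow myosin-binding protein C). Myl2, the regulatory light chain of slow muscle and of the heart's ventricles, had 2.00, 0.560 and 2.55 FPKM and then 2.14, 0.518 and 3.55. Myl3, the essential light chain of the same tissues, had 1.53, 0.668 and 2.42 FPKM and then 2.54, 1.09 and 3.73. Both were lowest in library 2 of each group and highest in YKL-40-labelled library 3, where the fast genes were nearly absent. Their changes were 0.13 ± 0.45 and 0.43 ± 0.35 (limma adjusted p = 0.911 and 0.567), and that of Myl2 turned to -0.23 if either control 2 or YKL-40-labelled library 3 was left out. Tnnc1, the slow troponin C, overlapped between the groups, at 1.629 ± 1.015 FPKM in the controls and 0.962 ± 0.709 under the YKL-40 label. Its change was -0.43 ± 0.35 (SE, limma adjusted p = 0.562). The slow myosin Myh7 did not exceed 0.187 FPKM in any library. Tnnc1 and Myh7 were lowest in library 2 of each group, like Myl2, but highest in control 3.

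The heart markers Myh6 and Tnni3 shared with Myl2 and Myl3 low values in library 2 of both groups and their highest value in YKL-40-labelled library 3. Myh6, the heart's alpha myosin heavy chain, had 1.66, 0.442 and 1.63 FPKM in the controls against 1.71, 0.508 and 2.94 under the YKL-40 label. Tnni3, the heart's troponin I, had 1.74, 0.834 and 1.12 FPKM and then 2.21, 0.535 and 2.86. Mybpc3 and Ryr2 shared this pattern, while Nppb, Nppa and Gata4 did not. Low values in library 2 were not particular to these genes. Control 2 was the lowest control for 41 of the 45 members. Tnnt2 and Actc1 were also lowest in library 2 of both groups, but neither was highest in YKL-40-labelled library 3. Nppb, the most abundant heart marker of the list, had 0.394, 1.53 and 2.35 FPKM in the controls against 4.02, 1.46 and 2.70 under the YKL-40 label. The ratio of Myh6 to Myl2 stayed between 0.638 and 0.981 over the 6 libraries, whereas that of Mylpf, the fast counterpart of Myl2, to Myl2 ran from 0.203 to 16.2. For Tnni3 to Myl3 the ratio ran from 0.463 to 1.25, and for Myl1 to Myl3 from 0.0123 to 6.36. Of the heart markers, only Myh6 and Tnni3, which shared the pattern, were put into ratios. Of 9 heart markers, 7 were above 0 in some library, and their sum was 6.64, 3.89 and 8.54 FPKM in the controls against 10.7, 3.78 and 12.6 under the YKL-40 label. The heart markers Nkx2-5, a transcription factor, and Myl7, the atrial light chain, were listed at 0 in all 6. A test was possible for 3 of the 9, and 0 passed in limma (0 at an unadjusted p under 0.05). Myoglobin, Mb, the oxygen store of slow and heart muscle, had 1.03, 0.292 and 0.984 FPKM and then 0.788, 0.207 and 1.16, again lowest in library 2 of each group. The part of heart genes in the values of Myl2, Myl3 and Mb was not tested.

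**Figure D4:**
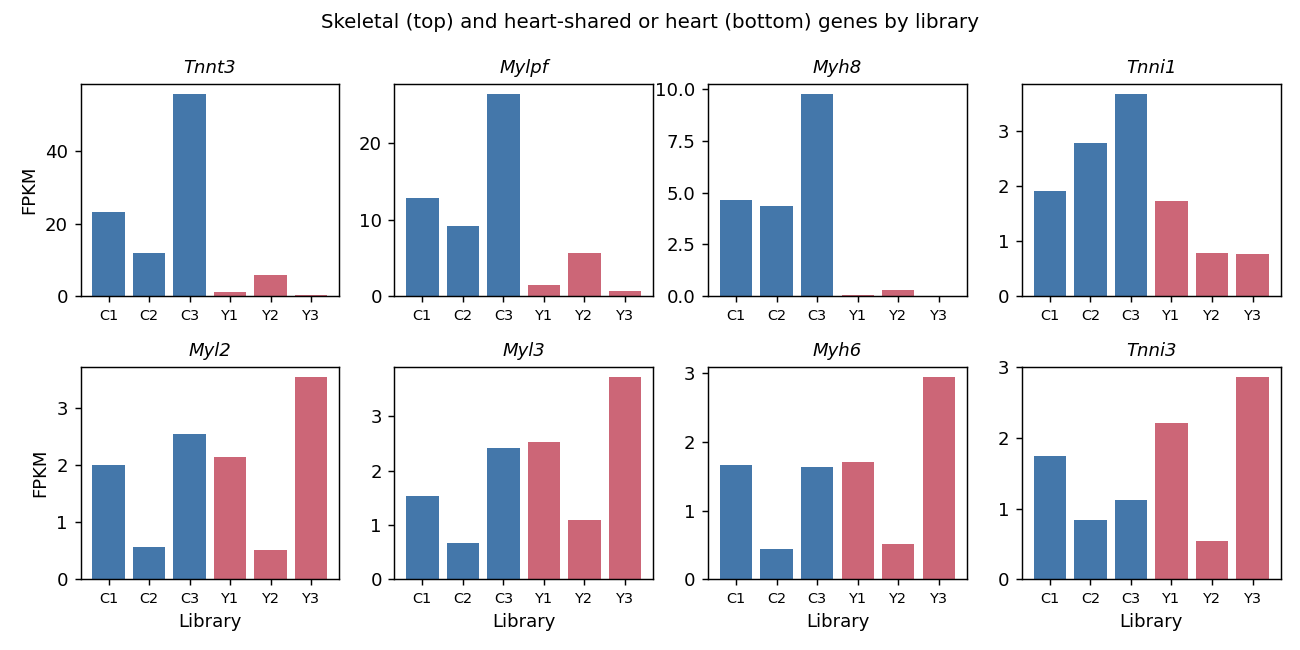
FPKM of 8 genes in control libraries 1 to 3 (C1 to C3, blue) and YKL-40-labelled libraries 1 to 3 (Y1 to Y3, red), each panel on its own linear axis from 0. Tnnt3, Mylpf, Myh8 and Tnni1 are highest in control 3. Myl2 and Myl3 share with the heart markers Myh6 and Tnni3 low values in library 2 of both groups. Their highest values are in YKL-40-labelled library 3. The heart markers Nppb, Nppa and Gata4, not plotted, do not share this pattern. Control 2 is also the lowest control for Tnnt3, Mylpf and Myh8.

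Structural genes shared by fibre types all had a change below 0, with a median of -0.80 over 12 members. In 8 of them every YKL-40-labelled library lay below every control (11.3% of all genes above 0). Des encodes desmin, the intermediate filament that links Z-discs. It had 7.21, 4.58 and 23.8 FPKM in the controls against 3.86, 3.63 and 1.90 under the YKL-40 label (-1.37 ± 0.52; limma adjusted p = 0.232). Acta1, the skeletal actin of the thin filament, had 7.87, 4.38 and 23.4 FPKM and then 0.570, 4.08 and 0.0413 (-2.38 ± 0.70; limma adjusted p = 0.156). Its YKL-40-labelled library 2 lay just below control 2, while library 3 was near 0. Tpm2, beta-tropomyosin, had 5.89, 5.04 and 14.6 FPKM and then 2.07, 4.77 and 3.15 (-1.05 ± 0.38; limma adjusted p = 0.222). The giant proteins titin and nebulin, which act as spring and ruler of the sarcomere, were 4.92-fold (Ttn) and 4.76-fold (Neb) higher in the mean of the controls. Myot, Myom2 and Smpx also had groups that did not overlap, at control means of 0.686, 1.16 and 0.879 FPKM. Actn2, Ldb3, Tcap and Myom1, parts of the Z-disc or the M-band, overlapped between the groups. None of the 6 tested genes of the class passed in limma, where 5 were lower at an unadjusted p under 0.05 (9.24% of all tested genes).

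None of the calcium handling genes passed the test. In 3 of the 4 every YKL-40-labelled library lay below every control (11.3% of all genes above 0). Atp2a1, the pump SERCA1 that returns calcium to its store in fast fibres, had 5.01, 1.39 and 6.15 FPKM in the controls against 0.501, 0.795 and 0.0850 under the YKL-40 label (-1.71 ± 0.41; limma adjusted p = 0.108). Casq1, calsequestrin, which holds calcium inside that store, had 1.99, 1.87 and 4.15 FPKM and then 1.07, 0.946 and 0.344 (-1.01 ± 0.27; limma adjusted p = 0.134). Neither gene's groups overlapped. Ryr1, the release channel, had groups apart at 0.688 ± 0.564 and 0.109 ± 0.0611 FPKM, and those of Cacna1s, the voltage sensor, overlapped at 0.281 ± 0.253 and 0.115 ± 0.0519 FPKM.

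Energy supply genes did not move together. Ckm, the muscle creatine kinase that buffers ATP, had 7.74, 4.92 and 20.8 FPKM in the controls against 2.76, 3.32 and 1.99 under the YKL-40 label (-1.51 ± 0.44; limma adjusted p = 0.150), with no overlap. Pygm, muscle glycogen phosphorylase, had 20.3, 11.7 and 16.1 FPKM and then 13.7, 12.3 and 11.1. Eno3, the muscle enolase of glycolysis, had 27.1, 18.8 and 18.0 FPKM and then 30.9, 22.7 and 17.6. These last genes overlapped between groups, with changes of -0.32 ± 0.19 and 0.13 ± 0.23 (limma adjusted p = 0.410 and 0.794), and that of Eno3 was -0.067 without YKL-40-labelled library 1. Eno3 and Pygm were above 11 FPKM in every library, also in YKL-40-labelled library 3, where Acta1 and Tnnt3 were at 0.0413 and 0.249 FPKM.

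The regulators and the receptor were near 0 in the YKL-40-labelled tumours. Myod1, the gene of MyoD, had 0.302, 0.184 and 1.15 FPKM in the controls and was listed at 0 in all 3 YKL-40-labelled libraries. Myog, myogenin, had 0.420, 0.0809 and 0.741 FPKM and then 0.0214, 0.0162 and 0. Chrna1, the alpha subunit of the muscle acetylcholine receptor, had 1.02, 0.249 and 1.74 FPKM and then 0.0820, 0 and 0. In each of the 3 genes control 3 was highest and control 2 was the lowest control, as in most members. All 3 had every YKL-40-labelled library below every control (11.3% of all genes above 0). All were below the filter, and the exact two-sided permutation p was 0.1 for each, the smallest that 3 against 3 libraries allow. In YKL-40-labelled library 2, which held the most fast myosin of its group, Myod1 and Chrna1 were listed at 0.

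Among all 11241 tested genes ordered by change, 15 of the 25 largest decreases and 18 of the 50 largest were muscle genes of the list, and 0 of the 50 largest increases were. Tnnt3 was in place 2, Myh8 in place 3 and Acta1 in place 5. The list was chosen with earlier results of these data known, so this order describes it and tests nothing.

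Other muscle genes, outside the 45, had median changes from -0.23 over the Z-disc list to 0.0046 over the dystrophin complex list. Means below 1 FPKM, where the scale shrinks changes, were found for 18 of the 26 Z-disc genes and 12 of the 15 triad and excitation genes. They were found for 16 of the 45 members. In the dystrophin complex list only 3 of 12 genes had such means, and in the list of other slow fibre genes 2 of 7. The median change of the latter was -0.02, so in these lists, unlike most members, the typical gene was not lower. Of 26 further Z-disc and sarcomere maintenance genes, 0 of 8 tested passed in limma (2 lower at an unadjusted p under 0.05), and in 8 of the 26 every YKL-40-labelled library lay below every control (11.3% of all genes above 0). Tpm1, a tropomyosin that many cell types make, had 89.7 ± 14.9 FPKM in the controls and 112 ± 14.3 under the YKL-40 label (limma adjusted p = 0.307). Of 15 genes of the triad and of excitation, 15 had a change below 0, 6 of the 15 had YKL-40-labelled libraries below all controls (again 11.3% of all genes), and 0 of 3 tested passed (1 lower at an unadjusted p under 0.05 in limma). Low genes with groups apart, not tested, included Lmod3, which helps to form thin filaments, at 0.850 ± 0.318 and 0.0331 ± 0.0324 FPKM. Cacng1, a subunit of the muscle calcium channel, had 1.34 ± 1.09 and 0.0818 ± 0.0872 FPKM. The caveolar genes Cav3 (0.545 ± 0.425 and 0.0120 ± 0.0208) and Cavin4 (0.622 ± 0.370 and 0.0133 ± 0.0115) were alike in this. Srl, sarcalumenin of the calcium store, had 5.08 ± 1.27 and 2.69 ± 0.210 FPKM. In the lists of other slow fibre genes, the dystrophin complex, the neuromuscular junction, other myogenic regulators and muscle metabolism, 0 genes passed in limma, of 5, 9, 3, 6 and 8 tested. At an unadjusted p under 0.05, 2, 1, 0, 2 and 2 of them were lower (9.24% of all tested genes). The counts of higher ones were 1, 1, 0, 0 and 1 (8.71% of all tested genes). Dag1, dystroglycan, which many cell types make, was at 102.5, 77.7 and 80.1 FPKM in the controls against 9.28, 96.7 and 11.7 under the YKL-40 label; its YKL-40-labelled library 2 was at the level of the controls (limma adjusted p = 0.263).

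Satellite cell and early myogenic genes were close to absent. Pax7, the marker of muscle stem cells, did not exceed 0.0260 FPKM in any library, and Myf5 not 0.0509. Pax3, which melanocytes also make, had 22.9 ± 1.98 FPKM in the controls against 20.9 ± 4.64 under the YKL-40 label, and Mef2d had 20.2 ± 1.78 and 20.96 ± 1.05.

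Markers of some other tissues also differed between the libraries. Of 6 tendon markers, 6 had a change below 0. In 3 of them every YKL-40-labelled library lay below every control (11.3% of all genes above 0). In limma 0 of 2 tested passed (2 lower at an unadjusted p under 0.05, against 9.24% of all tested genes). Their sum was 10.1, 10.4 and 28.1 FPKM in the controls against 2.80, 7.23 and 6.56 under the YKL-40 label, led by Thbs4 at 7.49, 6.28 and 21.7 and then 2.17, 5.86 and 4.84 FPKM, while Mkx was 0 in all but control 3. Erythrocyte markers summed to 472, 1193 and 1439 FPKM and then to 549.7, 116 and 96.3, and Alas2, their enzyme of haem synthesis, had 6.53, 10.8 and 28.1 and then 3.74, 2.56 and 1.29 FPKM. Hba-a1, an alpha globin, rose (limma adjusted p = 0.0303) while its near-identical copy Hba-a2 was lower without passing (0.0965), so their split is uncertain. Fibroblast markers summed to 25.2, 74.4 and 230 FPKM and then to 328, 208 and 394, with overlap, and macrophage markers to 47.9, 80.7 and 130.5 and then to 163.5, 210.3 and 267. In both of these lists 6 of 6 had a change above 0 and 0 passed in limma (6 and 5 higher at an unadjusted p under 0.05, as were 8.71% of all tested genes). Smooth muscle markers summed to 34.9, 55.5 and 91.3 FPKM and then to 25.3, 88.3 and 61.9, and 0 of their 4 tested members passed in limma (0 at an unadjusted p under 0.05). Keratinocyte markers summed to at most 0.119 FPKM in any library, with Krt14 listed at 0 in all 6. The part of these tissues in the muscle values was not tested.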

How the data were processed

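The authors deposited 1 FPKM value per gene and library for 6 tumours. Named without roles in the submitters' processing notes are build mm10 and the tools HISAT2, StringTie, bcl2fastq 2.0, limma and DESeq2. Per the labels' protocols, the TruSeq V2 kit, which keeps no strand, was used on 2 µg of RNA, so reads from stretches shared with an overlapping gene (20 members have one) cannot be assigned by strand. Counting details and the annotation are not given in the sources used here.

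FPKM values were used as log2(FPKM + 1). Genes whose mean reached 1 FPKM were tested with limma 3.58.1 in R 4.3.3 (variance trend, two-sided, Benjamini-Hochberg over all tested genes, threshold 0.05), on all 6 libraries. The procedure was tested on simulated data. Members below the filter got an exact permutation test. Medians over members use all 45, with no filter. Members and lists were chosen with earlier results of these data known. Per-library values are given for the 3 most abundant tested genes of each class and for all developing and regulator genes. Other lists are described by their most abundant genes, except the heart markers, which are all named. Lmod3, Cacng1, Cav3, Cavin4, Pax7, Myf5, Mef2d, Mkx, Alas2, Hba-a2 and Krt14 were chosen after their values were seen. The pattern shared by some heart markers was also described after their values were seen. Positions and promoters are from RefSeq GRCm38.p6. The alternatives are described in the closing section. Control over YKL-40-labelled ratios are of mean FPKM.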

Additional observations from a re-analysis of the deposited data

How the results depend on the processing

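Counts over all genes moved most. Main counts were 8 genes lower, 41 higher and 2 members lower. Without a filter they were 0, 1 and 0, with a filter at a mean of 5 FPKM 4 genes and 0 members were lower, and with a pseudocount of 0.01 there was 1 member. Array quality weights gave 446 lower and 665 higher genes and 9 lower members. Leaving out 1 library gave 0 to 40 lower genes, 0 to 198 higher genes and 0 to 5 lower members. With the replicate number as a block (replicate block), 110 genes were higher, 10 lower and 2 members lower. Same-numbered libraries did not deviate together (correlations of -0.083, -0.185 and 0.002), so the numbers are taken as names only.

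The 29 members with groups apart became 8 and 18 where only members with a mean of 5 FPKM, or with 1 FPKM in 3 libraries, were counted, and 29 to 36 without 1 library. The median change of -0.85 was -1.94 and -2.27 with pseudocounts of 0.1 and 0.01, -1.51 and -1.32 for the members past those filters, and -0.62 to -0.96 without 1 library. It did not reverse in any setting run. Variance trend, block and the main filter do not enter this median. Changes that turned direction were those of Myl2 (-0.23 to 0.57 over the fits that leave out 1 library, negative when control 2 or the YKL-40-labelled library 3 was left out), Tnnt2 (-0.51 to 0.35, at 0.30 without control 3, and 0.14 with array quality weights) and Eno3 (-0.067 to 0.32, negative without YKL-40-labelled library 1). Of the values of single members under alternatives, 434 kept direction and call, 10 gained a call, 11 lost one and 6 reversed. Depth is unknown, so no floor or counting interval can be given for values near 0.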
